A study of Bos taurus with 15 samples.

Results

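Mammalian embryos hold fat in droplets, and the enzymes that make, alter, store and burn fatty acids were followed here as a set of 36 genes: those of acetyl-CoA supply and chain synthesis, desaturases, elongases, acyl-CoA synthetases, the enzymes that assemble triacylglycerol, droplet coat proteins and lipases, and fatty acid binding and carnitine transfer proteins. The genes were picked by name, with earlier results of these data known, and all 36 were present among the 17259 genes of the deposited table. They were read in bovine (Bos taurus) day 7 blastocysts of 3 groups with 5 libraries each. In the automatic group the cumulus cells, the somatic cells around the egg, had been removed from the zygotes by an automatic procedure, in the manual group by hand, and both were then grown in SOF (an embryo medium modelled on oviduct fluid) until day 7; the in vivo group was collected as blastocysts and had no culture. No genotype, breed, donor or sex enters the group names, and whether a library came from 1 blastocyst or from several is not stated outright. Nothing in the labels ties the libraries of a group to separate cultures, donors or days, so each p-value below measures only how these libraries scatter, and part of that scatter may be technical.

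Fatty acid synthesis starts in the cytosol, where citrate or acetate yields acetyl-CoA, which is carboxylated to malonyl-CoA and built into palmitate. Palmitate is then lengthened by elongases and given double bonds by desaturases at the endoplasmic reticulum, activated to acyl-CoA, and either esterified into the triacylglycerol of droplets or passed to mitochondria through the carnitine shuttle. Bovine oocytes and embryos are known for their high content of such droplets. Embryos grown in culture are known to stain more strongly for lipid than those from the uterus.

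Levels are given as CPM (counts per 1000000 counts of the library, with library sizes scaled by TMM factors; M below stands for this number). CPM compares libraries for 1 gene and not genes with each other, since it is not divided by transcript length. A gene was called when its adjusted p from edgeR (quasi-likelihood test, Benjamini-Hochberg over all genes tested) was under 0.05. Library totals ran from 17.96 to 41.97 M counts. Trophectoderm markers (KRT8, KRT18, KRT19, CDX2, GATA3, TFAP2C and ELF3), which mark the outer epithelium of the blastocyst, summed to 4166 to 13861 CPM in automatic, 7996 to 33936 CPM in manual and 12435 to 30660 CPM in in vivo libraries. Epiblast markers summed to 165 to 722, 183 to 588 and 204 to 794 CPM in the same order. Hypoblast markers summed to 224 to 679 CPM in automatic, 159.5 to 340 CPM in manual and 182 to 483 CPM in in vivo libraries, with SOX17 below 1 CPM in every library. The 10 cumulus and granulosa markers, which could show cells left behind after cumulus removal, summed to 1.71 to 20.8 CPM in automatic, 7.48 to 88.4 CPM in manual and 16.5 to 44.5 CPM in in vivo libraries, with FOXL2 at 0 and PTX3 and INHA below 1 CPM in all 15. Of 5 adipocyte markers in the table, LEP and CIDEC had 0 counts in every library, and the sum of the 5 reached at most 1.19 CPM in automatic, 1.20 CPM in manual and 10.5 CPM in in vivo libraries; this last value is mostly LIPE, itself 1 of the 36 genes. The 6 stroma markers summed to 37.6 to 234 CPM in automatic, 26.4 to 511 CPM in manual and 0.0457 to 35.2 CPM in in vivo libraries. The 4 blood markers in the table summed to 0.111 to 190.5, 2.11 to 77.8 and 10.9 to 45.3 CPM in the same order, with PTPRC at 0 throughout. The part of these markers' cells in the lipid gene values was not tested. In such bulk libraries, fewer cells of a type and less RNA per cell cannot be told apart.

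Detection varied between libraries more than between groups. Libraries 2 and 4 of the automatic group, 2 of the manual group and 2 and 4 of the in vivo group, called low-detection libraries here, had 10 or more counts for 6977 to 8547 genes, against 9900 to 12611 in the other 10. In these 5 libraries between 4 and 10 of the 36 lipid genes had 0 counts, against 0 to 5 in the others. Of 65 zeros in all, 39 were in the low-detection libraries. Such libraries stood at the low end for some genes and at the high end for others: 29 of 36 genes had their lowest level in 1 of the 5, and 20 of 36 their highest. Where libraries tied at 0, the first in order was taken as the lowest. For ACSS2 this was automatic 2, though automatic 3 and 5 also had 0 counts. The matching shares over all genes were not computed, so whether these counts are particular to the lipid genes is not known. Together the 36 genes took 0.369 ± 0.063% of counts in automatic, 0.480 ± 0.123% in manual and 0.415 ± 0.0773% in in vivo libraries (SD, n = 5 each), ranges that overlap.

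**Figure D1:**
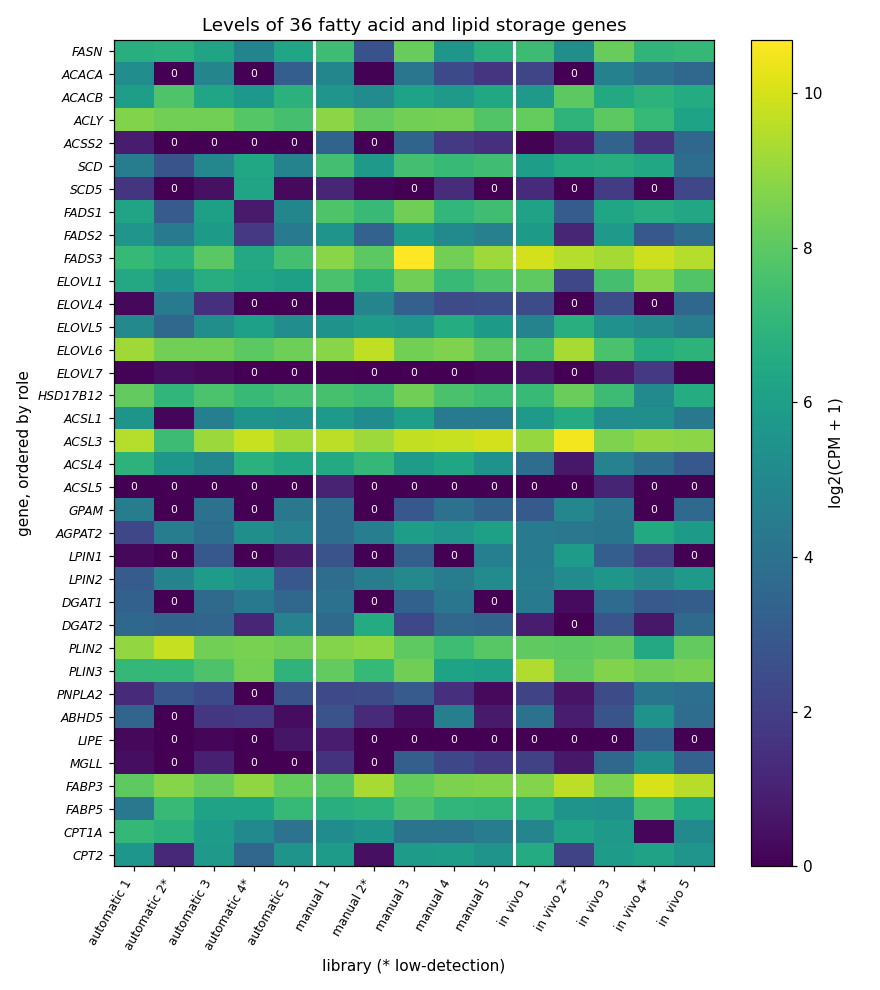
Level of each of the 36 genes (rows, ordered by role) in each of the 15 libraries (columns, by group; asterisks mark the low-detection libraries), coloured by log2(CPM + 1), with 0 written where a library had no count. Zeros gather in the starred columns and in ACSL5, LIPE and ELOVL7, while FADS3 is bright in the in vivo columns and darker in the automatic ones.

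Of the 36 genes, 33 had enough counts to be tested. The other 3 were ACSL5, an acyl-CoA synthetase, with counts in 1 manual library (1.01 CPM) and 1 in vivo library (1.17 CPM) only; LIPE, hormone-sensitive lipase, which lay below 1 CPM in 14 libraries and at 9.06 CPM in in vivo 4; and ELOVL7, an elongase, which lay at or below 2.42 CPM throughout. Counts of 0 for these genes limit their level at the depth sequenced and do not show that they are silent. Among the 33, the spread between libraries of a group was a median SD of 1.64 on the log2 CPM scale, against 2.21 for all 11578 genes tested, and ran from 0.54 for FABP3 to 3.79 for GPAM.

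The desaturases SCD, FADS1 and FADS3 lay lower after automatic than after manual removal of the cumulus (log2 fold changes of -2.47 to -2.08), with little or no overlap between the groups, but none of them was called. SCD puts the first double bond into stearate and palmitate. FADS1 and FADS2 are the delta-5 and delta-6 desaturases that make the long polyunsaturated chains, and FADS3 is a member of the same family that acts on sphingoid bases in mouse and human cells. In the reference annotation FADS1, FADS2 and FADS3 are next to one another on chromosome 29.

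SCD lay at 21.2, 5.92, 30.4, 82.6 and 26.4 CPM in automatic libraries 1 to 5, at 179.5, 53.3, 179, 145 and 172 CPM in manual libraries 1 to 5, and at 60.2, 96.0, 101, 82.0 and 13.7 CPM in in vivo libraries 1 to 5. Automatic 4, a low-detection library, was the only automatic one above manual 2, itself low-detection, and the in vivo libraries overlapped with both other groups. For automatic against manual the log2 fold change was -2.13 ± 0.67 (SE) (edgeR adjusted p = 0.9999, unadjusted p = 0.00479), and -2.68 ± 0.54 with the low-detection libraries left out (edgeR adjusted p = 0.638). Set against in vivo, SCD was at -1.09 ± 0.65 in automatic and 1.05 ± 0.65 in manual blastocysts (edgeR adjusted p of at least 0.9995 for each). SCD5, a second stearoyl-CoA desaturase that cattle share with primates, had 2.13, 0, 0.387, 75.8 and 0.215 CPM in automatic, 1.23, 0.0937, 0, 1.57 and 0 CPM in manual and 1.43, 0, 2.6, 0 and 3.81 CPM in in vivo libraries. Only automatic 4, which is also the automatic library with the most SCD, stood well above 0.

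FADS1 had 75.6, 7.29, 67.1, 0.719 and 29.5 CPM in automatic, 215, 147, 332, 133 and 171 CPM in manual, and 70.7, 7.65, 79.5, 101 and 84.5 CPM in in vivo libraries 1 to 5. Every automatic and every in vivo library lay below every manual one. Automatic 2, automatic 4 and in vivo 2, which are low-detection, were the lowest of their groups. For automatic against manual the log2 fold change was -2.47 ± 0.85 (edgeR adjusted p = 0.9999, unadjusted p = 0.00939), and -1.86 ± 0.41 without the low-detection libraries (edgeR adjusted p = 0.850). For manual against in vivo it was 1.54 ± 0.83 (edgeR adjusted p = 0.9997), and for automatic against in vivo -0.93 ± 0.81 (edgeR adjusted p = 0.9997).

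FADS3 showed the lowest p of the set for automatic against in vivo. It lay at 144, 106, 246, 86.7 and 182 CPM in automatic libraries, 439, 252, 1658, 339.9 and 553 CPM in manual libraries and 990.3, 736, 603, 950.0 and 723 CPM in in vivo libraries. No automatic library reached the lowest manual or in vivo one, while manual 3 was the highest of all 15. The log2 fold change was -2.08 ± 0.46 for automatic against manual (edgeR adjusted p = 0.9999, unadjusted p = 2.50e-04), -2.39 ± 0.47 for automatic against in vivo (edgeR adjusted p = 0.190, unadjusted p = 6.58e-05) and -1.35 ± 0.37 for in vitro (both cultured groups, weighted equally) against in vivo (edgeR adjusted p = 0.444). Without manual 3 FADS3 was called for automatic against in vivo (-2.38 ± 0.35, edgeR adjusted p = 0.0117) and for in vitro against in vivo (-1.70 ± 0.29, edgeR adjusted p = 0.0331), and automatic against manual shrank to -1.36. Manual 3 is no part of automatic against in vivo, where the fold change hardly moved and the SE fell from 0.47 to 0.35. That SE comes from a spread estimated over all groups together. DESeq2 called FADS3 for automatic against manual (-2.09 ± 0.51, adjusted p = 0.0497) and for automatic against in vivo (-2.39 ± 0.51, adjusted p = 0.00121). Limma-voom called it in no comparison. Without the low-detection libraries it was not called, at -2.01 ± 0.53 for automatic (edgeR adjusted p = 0.394) and -1.04 ± 0.41 for in vitro against in vivo (edgeR adjusted p = 0.551).

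For FADS2 no difference between the groups was called either, and the 95% interval of its log2 fold change for automatic against manual, -2.29 to 1.78, takes in the value of FADS3. FADS2 lay at 46.7, 19.8, 55.2, 2.43 and 20.1 CPM in automatic, 45.9, 9.28, 59.6, 32.5 and 24.6 CPM in manual and 56.0, 1.22, 53.4, 6.68 and 12.9 CPM in in vivo libraries. These ranges overlap almost wholly, and the lowest library of each group was low-detection. Estimated counts may divide reads among the similar FADS transcripts, which could make the values of these 3 genes less certain. Whether reads were divided in this way, and how that moved the values, was not tested. The summed trophectoderm markers also had medians of 9085 CPM in automatic, 10947 CPM in manual and 23112 CPM in in vivo libraries, and their part in the desaturase values was not tested.

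**Figure D2:**
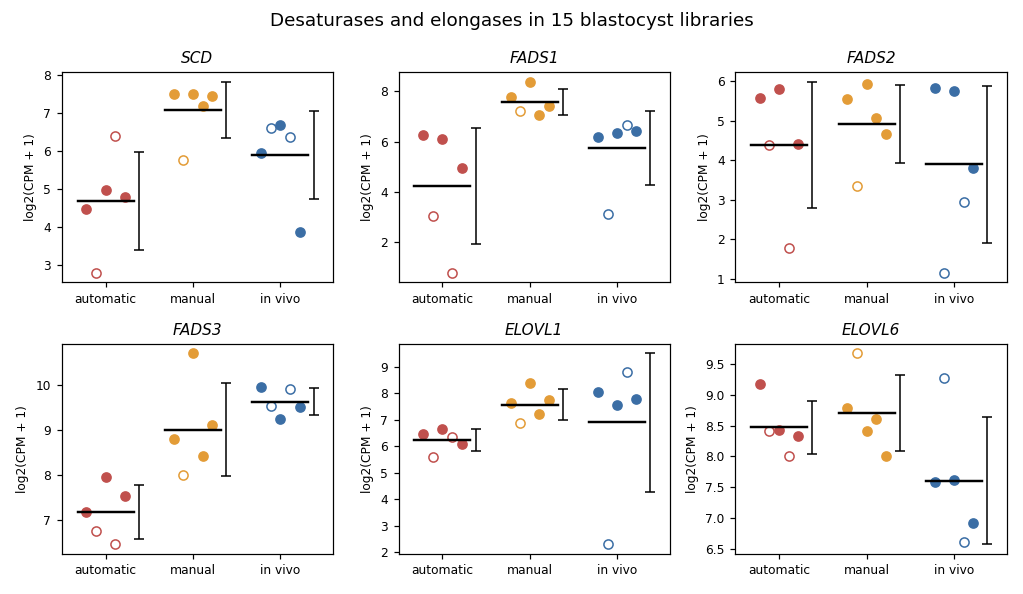
log2(CPM + 1) of 4 desaturases and 2 elongases in automatic, manual and in vivo libraries (points; open points are low-detection libraries), with the group mean of log2(CPM + 1) as a line and its SD as a bar (n = 5). Each gene has its own axis range, which need not start at 0. Automatic points lie below all manual points for FADS1, FADS3 and ELOVL1, and in vivo 2 stands far below its group for ELOVL1.

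ELOVL1 lengthens saturated chains to those of very long sphingolipids. It had 87.9, 47.5, 101, 79.9 and 67.5 CPM in automatic, 195, 115, 335, 148 and 216 CPM in manual, and 264, 3.90, 187, 445 and 219 CPM in in vivo libraries. All automatic libraries lay below all manual libraries and below all in vivo libraries but in vivo 2. ELOVL1 had a log2 fold change of -1.40 ± 0.67 for automatic against manual (edgeR adjusted p = 0.9999) and -1.55 ± 0.67 for automatic against in vivo (edgeR adjusted p = 0.873). For in vitro against in vivo it was -0.85 ± 0.55 (edgeR adjusted p = 0.987).

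ELOVL6 lengthens palmitate to stearate. Its levels were 579, 338, 345, 257 and 319 CPM in automatic, 441, 817, 339.8, 391 and 256 CPM in manual and 191, 620.1, 194, 96.8 and 120.2 CPM in in vivo libraries. All in vitro libraries lay above 4 of the 5 in vivo ones, and in vivo 2, a low-detection library, above all but 1 in vitro library. ELOVL5, which lengthens polyunsaturated chains, lay at 32.1, 11.03, 38.3, 65.3 and 36.4 CPM in automatic, 44.7, 57.2, 46.7, 97.7 and 56.5 CPM in manual and 26.9, 104, 41.6, 32.2 and 21.9 CPM in in vivo libraries. HSD17B12, the ketoacyl-CoA reductase of the elongation cycle, lay at 282, 130.0, 205, 147 and 179 CPM in automatic, 193, 161, 327, 198 and 166 CPM in manual and 150.4, 307, 159.9, 33.9 and 96.6 CPM in in vivo libraries. The groups overlap for ELOVL5 and for HSD17B12. ELOVL4, an elongase of very long chains, had 0 counts in 4 libraries and reached at most 28.5 CPM.

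Among all 33 genes tested for automatic against manual, 0 were called (background: 0.0% of the 11578 genes tested were called). By an unadjusted p under 0.05, 4 genes, ACSS2, SCD, FADS1 and FADS3, all lower after automatic removal, made up 12.1% of the 33 (background 1.48%). The groups did not overlap for 3 genes, FADS1, FADS3 and ELOVL1, all lower after automatic removal (9.09% of the 33, background 0.665%). The genes were chosen with earlier results of these data known, so shares above the background do not show an excess for the set. Of the 33, 24 lay lower and 9 higher after automatic removal, with a median log2 fold change of -0.30 (all genes tested: 52.9% lower, median -0.05). By role, 4 of 5 desaturases, 5 of 5 tested genes of elongation and 3 of 3 acyl-CoA synthetases had a fold change below 0, and the 6 genes of glycerolipid assembly divided into 3 above and 3 below. Scaling by library size alone turned these to 22 lower and 11 higher, with 4 of 5, 5 of 5 and 2 of 3 below 0 for those roles. A difference of more than 4-fold either way was outside the 95% interval for 11 of 33 genes (24.0% of all genes tested), and one of more than 2-fold for 2, so the missing calls do not show that the groups are alike.

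At the start of the pathway, ACLY, which splits citrate to acetyl-CoA, was higher in culture than in vivo without passing the test. It lay at 411, 343, 343, 232 and 186 CPM in automatic, 458, 277, 343, 351 and 218 CPM in manual and 284, 125, 259, 144 and 73.1 CPM in in vivo libraries. The 2 highest in vivo libraries overlapped with the lower in vitro ones. For in vitro against in vivo the log2 fold change was 0.84 ± 0.35 (edgeR adjusted p = 0.731), with 0.78 ± 0.39 for automatic and 0.90 ± 0.39 for manual against in vivo (edgeR adjusted p of at least 0.948 for each). In vivo 2 and in vivo 4, at 125 and 144 CPM, are low-detection. With the low-detection libraries left out the in vitro value was 0.68 ± 0.42 (edgeR adjusted p = 0.765).

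ACSS2, which makes acetyl-CoA from acetate, was close to the detection limit after automatic removal. It had 24 counts in automatic 1 and 0 in automatic 2 to 5, against 325, 0, 310, 79 and 33 counts in manual and 2, 10, 467, 41 and 296 counts in in vivo libraries 1 to 5. In CPM these are 0.750 in automatic 1, against 9.98, 0, 9.80, 2.48 and 1.74 in manual and 0.0453, 0.765, 9.55, 1.88 and 10.9 in in vivo libraries. Low levels occurred in every group, so the groups overlap. Its log2 fold change was -4.95 ± 2.21 for automatic against manual (edgeR adjusted p = 0.9999), -4.90 ± 2.21 for automatic against in vivo (edgeR adjusted p = 0.910) and -2.42 ± 1.56 for in vitro against in vivo (edgeR adjusted p = 0.986), each resting on few counts.

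FASN, the synthase that builds palmitate, lay at 107, 112, 74.8, 27.7 and 77.2 CPM in automatic, 165, 5.39, 297, 49.0 and 111 CPM in manual and 162, 37.7, 299, 128 and 139 CPM in in vivo libraries. Manual 2 was the lowest of all, and the groups overlap. ACACA, the acetyl-CoA carboxylase that feeds synthesis, had 36.8, 0, 28.4, 0 and 8.26 CPM in automatic, 28.9, 0.0469, 17.3, 4.31 and 2.16 CPM in manual and 3.76, 0, 25.1, 15.4 and 11.1 CPM in in vivo libraries. Its 3 zeros and its single count in manual 2 were all in low-detection libraries. The spread of ACACA within groups (SD 3.78 on the log2 scale) was wider than that of 98.2% of genes tested. ACACB, the carboxylase isoform tied to mitochondria, which restrains fatty acid entry there, averaged 104 ± 65.5 CPM in automatic, 58.5 ± 19.8 CPM in manual and 122 ± 76.5 CPM in in vivo libraries (SD, n = 5).

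ACSL4 was the 1 gene of the set whose cultured and in vivo libraries did not overlap, averaging 80.6 ± 35.8 CPM in culture (SD, n = 10) against 11.9 ± 9.31 CPM in vivo (SD, n = 5), though edgeR did not call it. This acyl-CoA synthetase prefers arachidonic and related polyunsaturated acids and directs them into phospholipids. ACSL4 lay at 120.0, 50.3, 29.97, 114 and 81.6 CPM in automatic, 92.1, 139, 59.8, 77.7 and 42.5 CPM in manual and 13.2, 0.612, 25.6, 13.4 and 6.64 CPM in in vivo libraries 1 to 5. The lowest of 10 in vitro libraries, automatic 3, was just above the highest in vivo library, in vivo 3. ACSL4 had a log2 fold change of 2.76 ± 0.72 for in vitro against in vivo (edgeR adjusted p = 0.344, unadjusted p = 0.00112), 2.73 ± 0.76 for automatic against in vivo (edgeR adjusted p = 0.511) and 2.79 ± 0.76 for manual against in vivo (edgeR adjusted p = 0.994). Both single comparisons share the in vivo libraries. With the low-detection libraries left out the in vitro value was 2.27 ± 0.55 (edgeR adjusted p = 0.281). DESeq2 called ACSL4 in all 3 comparisons (in vitro 2.75 ± 0.59, adjusted p = 0.00128; automatic 2.74 ± 0.68, adjusted p = 0.0149; manual 2.77 ± 0.68, adjusted p = 0.0181), and limma-voom called it in none.

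ACSL3 is the synthetase of growing lipid droplets. It lay at 723, 160.2, 547, 879 and 578 CPM in automatic, 795, 553, 839.6, 886 and 999.8 CPM in manual and 517, 1465, 389, 496 and 461 CPM in in vivo libraries. In vivo 2 was the highest of all 15 and automatic 2 the lowest, both of them low-detection. Its log2 fold change for in vitro against in vivo was 0.04 ± 0.36 (edgeR adjusted p = 0.9993), 0.56 ± 0.33 without in vivo 2 and 0.69 ± 0.22 without the 5 low-detection libraries (edgeR adjusted p = 0.427). Among the 10 libraries that remain, those of in vitro blastocysts ran from 547 to 999.8 CPM and those of in vivo blastocysts from 389 to 517 CPM, without overlap. In these 10 libraries ELOVL6, HSD17B12 and ACSL4 were also higher in vitro without overlap, and PLIN3 was lower without overlap. The share of all genes tested without overlap in these 10 libraries was not computed, so this is not a result particular to the lipid genes. Only in vivo 1, 3 and 5 remain on the in vivo side, which makes a lack of overlap easier to reach. In all 15 libraries ACSL4 alone did not overlap. ACSL1 averaged 31.4 ± 19.7 CPM in automatic, 38.7 ± 20.7 CPM in manual and 49.1 ± 29.1 CPM in in vivo libraries (SD, n = 5).

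FABP3 and PLIN3 were lower in culture, again without a call. FABP3 is a cytosolic fatty acid binding protein, with 259, 432, 302, 486 and 289 CPM in automatic, 228, 621, 289, 382 and 406 CPM in manual and 416, 802, 371, 1068 and 754 CPM in in vivo libraries. Of the 10 in vitro libraries 5 lay below the lowest in vivo one. In log2 terms FABP3 differed by -0.89 ± 0.30 for in vitro (edgeR adjusted p = 0.553), -0.95 ± 0.36 for automatic (edgeR adjusted p = 0.763) and -0.82 ± 0.36 for manual against in vivo (edgeR adjusted p = 0.9997). FABP5, the epidermal type of binding protein, lay at 18.7, 149.6, 70.9, 72.2 and 144 CPM in automatic, 106, 119, 195, 130.3 and 124 CPM in manual and 99.7, 45.8, 41.8, 192 and 85.2 CPM in in vivo libraries, and its groups overlap.

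PLIN3, a perilipin that moves between cytosol and small droplets, lay at 138, 137, 207, 351 and 122 CPM in automatic, 281, 141, 335, 73.5 and 66.0 CPM in manual and 684, 277, 408, 334 and 358 CPM in in vivo libraries. In vivo 1 was far above the rest, and automatic 4, manual 1 and manual 3 reached into the in vivo range. In log2 terms PLIN3 differed by -1.15 ± 0.39 for in vitro (edgeR adjusted p = 0.553), -1.11 ± 0.47 for automatic (edgeR adjusted p = 0.864) and -1.20 ± 0.47 for manual against in vivo (edgeR adjusted p = 0.9997).

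PLIN2, the perilipin that coats most droplets outside fat tissue, went the other way. It had 494, 864, 342, 370.0 and 329 CPM in automatic, 421, 471, 262, 164 and 242 CPM in manual and 274, 258, 279.9, 87.2 and 281 CPM in in vivo libraries. Every automatic library lay above every in vivo one, and the manual libraries spanned both. The log2 fold change was 1.02 ± 0.40 for automatic against in vivo (edgeR adjusted p = 0.787), 0.71 ± 0.36 for in vitro against in vivo (edgeR adjusted p = 0.856) and 0.62 ± 0.40 for automatic against manual (edgeR adjusted p = 0.9999). Automatic 2 and in vivo 4, the highest and the lowest of all, are low-detection. Without the 5 low-detection libraries automatic against in vivo was 0.50 ± 0.34 (edgeR adjusted p = 0.945). In vitro against in vivo then fell to 0.23 ± 0.29 (edgeR adjusted p = 0.952).

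**Figure D3:**
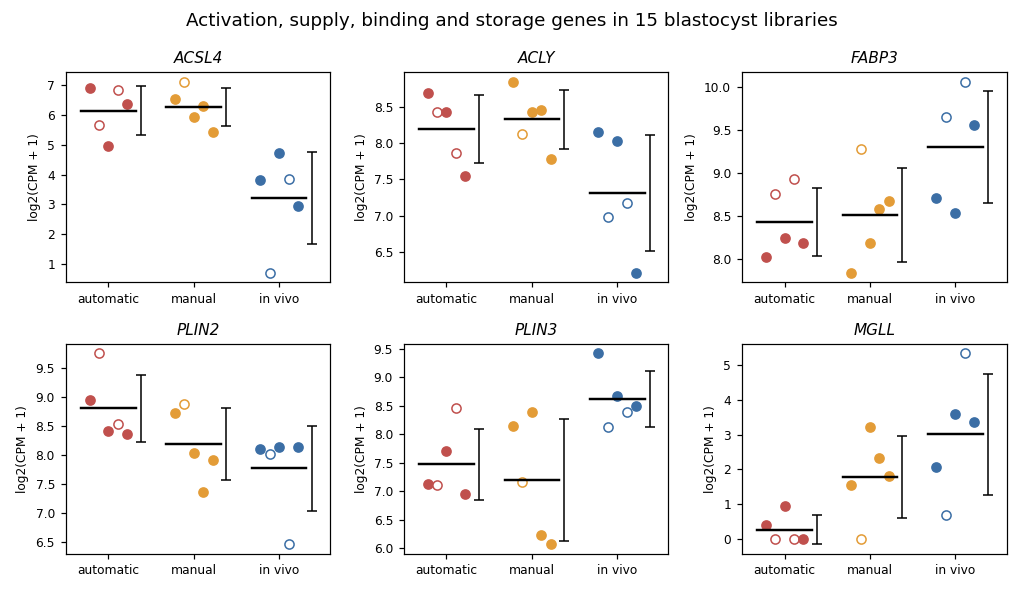
log2(CPM + 1) of ACSL4, ACLY, FABP3, PLIN2, PLIN3 and MGLL in automatic, manual and in vivo libraries (points; open points are low-detection libraries), with the group mean of log2(CPM + 1) as a line and its SD as a bar (n = 5). Each gene has its own axis range, which need not start at 0. For ACSL4 the 10 in vitro points sit higher than every in vivo point, and for PLIN2 all automatic points do.

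The lipases and their helper were low and uneven. MGLL, which completes the breakdown of monoacylglycerol, lay at 0.313, 0, 0.943, 0 and 0 CPM in automatic, 1.94, 0, 8.38, 3.99 and 2.53 CPM in manual and 3.17, 0.612, 10.9, 39.4 and 9.28 CPM in in vivo libraries. The 0 at manual 2 and the low value at in vivo 2 make these groups overlap with automatic. Manual and in vivo libraries also overlap with manual 2 and in vivo 2 set aside. MGLL had a log2 fold change of -5.62 ± 2.05 for automatic against in vivo (edgeR adjusted p = 0.744; DESeq2 -5.64 ± 1.56, adjusted p = 0.0441), -3.76 ± 1.43 for in vitro against in vivo (edgeR adjusted p = 0.694; -2.53 ± 1.21 without the low-detection libraries), -3.71 ± 1.87 for automatic against manual (edgeR adjusted p = 0.9999) and -1.91 ± 1.74 for manual against in vivo (edgeR adjusted p = 0.9997). PNPLA2, the lipase that takes the first fatty acid off triacylglycerol, had 1.50, 6.35, 4.26, 0 and 5.73 CPM in automatic, 4.21, 4.50, 7.37, 1.82 and 0.211 CPM in manual and 3.60, 0.459, 4.56, 16.9 and 13.8 CPM in in vivo libraries. ABHD5, its activator, had 10.1, 0, 2.23, 2.54 and 0.269 CPM in automatic, 5.65, 1.41, 0.253, 23.5 and 0.684 CPM in manual and 15.1, 0.765, 5.91, 44.3 and 13.2 CPM in in vivo libraries. In vivo 4, a low-detection library, was highest of all 15 for MGLL, PNPLA2, ABHD5 and LIPE.

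Several genes of triacylglycerol assembly had 0 counts in low-detection libraries, and none of the 6 tested was called. GPAM, the mitochondrial acyltransferase that adds the first chain to glycerol phosphate, had 22.1, 0, 14.9, 0 and 18.5 CPM in automatic, 13.1, 0, 6.67, 14.8 and 9.53 CPM in manual and 7.16, 29.8, 17.5, 0 and 11.5 CPM in in vivo libraries. All 4 of its zeros were in low-detection libraries. LPIN1, a phosphatidate phosphatase, had 0.156, 0, 6.75, 0 and 0.727 CPM in automatic, 5.59, 0, 8.35, 0 and 23.2 CPM in manual and 21.0, 58.7, 8.24, 3.20 and 0 CPM in in vivo libraries. Its groups overlap, with zeros in each. AGPAT2, which adds the second chain, averaged 20.9 ± 13.2 CPM in automatic, 42.2 ± 23.4 CPM in manual and 39.9 ± 31.9 CPM in in vivo libraries (SD, n = 5). LPIN2, a second phosphatase of that kind, averaged 28.0 ± 22.1 CPM in automatic, 24.6 ± 8.46 CPM in manual and 38.7 ± 13.3 CPM in in vivo libraries.

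DGAT1 and DGAT2 add the last chain. DGAT1 had 9.001, 0, 11.9, 18.9 and 11.01 CPM in automatic, 15.3, 0, 8.88, 17.6 and 0 CPM in manual and 20.2, 0.230, 12.4, 6.95 and 8.03 CPM in in vivo libraries. DGAT2 had 11.1, 9.58, 10.3, 1.22 and 26.1 CPM in automatic, 12.2, 93.7, 3.92, 10.6 and 9.58 CPM in manual and 0.816, 0, 5.97, 0.595 and 12.1 CPM in in vivo libraries. For both genes the groups overlap, and the high DGAT2 value of manual 2 came from a low-detection library.

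For the use of fatty acids in mitochondria, CPT1A, the carnitine transferase that controls their entry, lay at 139, 117, 57.0, 33.7 and 15.8 CPM in automatic, 35.7, 45.5, 16.3, 16.2 and 21.9 CPM in manual and 28.0, 70.6, 54.4, 0.0915 and 34.1 CPM in in vivo libraries. The 2 highest values were automatic 1 and 2, and the lowest, in vivo 4, was close to 0 in a low-detection library. CPT2, the inner membrane partner, averaged 31.6 ± 23.8 CPM in automatic, 45.3 ± 25.9 CPM in manual and 55.2 ± 34.0 CPM in in vivo libraries (SD, n = 5). Its 3 lowest values were in automatic 2, manual 2 and in vivo 2.

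Among all 33 genes tested for in vitro against in vivo, 0 were called (background: 0.0173% of genes tested). An unadjusted p under 0.05 was reached by 6 genes, or 18.2% of the 33 (background 6.13%): ACLY and ACSL4 were higher, and FADS3, PLIN3, MGLL and FABP3 lower. The groups did not overlap for 1 gene, ACSL4 (3.03%, background 0.475%). These shares do not show an excess for the set either, since its genes were chosen with earlier results known. Of the 33, 15 lay higher and 18 lower, with a median log2 fold change of -0.05 (all genes tested: 51.8% lower, median -0.04), and 16 higher and 17 lower when scaled by library size alone. Of 5 tested droplet and lipase genes 4 were below 0, PLIN2 being the exception, and of 5 tested elongation genes 4 were above 0, ELOVL1 being the exception. A difference of more than 4-fold was outside the 95% interval for 16 of 33 genes (26.8% of all genes tested).

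Taken singly against in vivo, with the same in vivo libraries in both, automatic blastocysts had 0 calls (background 0.0173%), 8 genes at an unadjusted p under 0.05 (24.2%, background 5.36%) and 3 without overlap, namely FADS3, ACSL4 and PLIN2 (9.09%, background 2.07%). Manual blastocysts had 0 calls (background 0.0%), 4 genes at an unadjusted p under 0.05 (12.1%, background 3.39%) and 2 without overlap, FADS1 and ACSL4 (6.06%, background 1.36%). The same limit from the choice of genes holds for these shares.

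**Figure D4:**
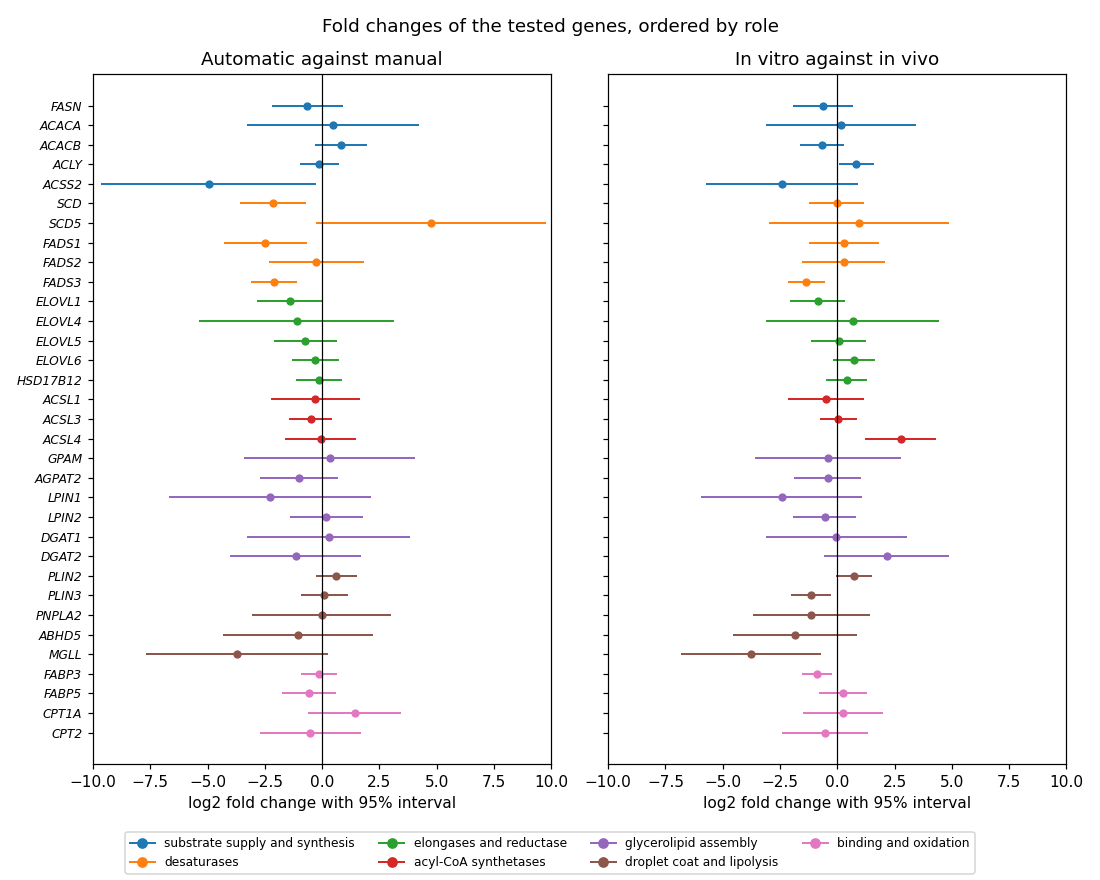
log2 fold change (points) and 95% interval (lines) from the edgeR fit for the 33 tested genes, coloured and ordered by role, for automatic against manual (left) and in vitro against in vivo (right). On the left the intervals of ACSS2, SCD, FADS1 and FADS3 lie below 0, and on the right ACSL4 and ACLY lie above 0 and FADS3, PLIN3, MGLL and FABP3 below, none of them called after adjustment.

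Another 8 lists of the pathway, with 149 genes of which 119 were tested, held 0 called genes in any comparison. At an unadjusted p under 0.05 there were 0 of 119 for automatic against manual (background 1.48% of all genes tested) and 8 of 119, 2 higher and 6 lower, for in vitro against in vivo (6.72%, background 6.13%), a share near the background. There were 7 of 119, 3 higher and 4 lower, for automatic against in vivo (5.88%, background 5.36%) and 5 of 119, 2 higher and 3 lower, for manual against in vivo (4.20%, background 3.39%). Of the factors that control lipid synthesis, SREBF1 averaged 5.70 ± 3.04 CPM in automatic, 17.3 ± 14.1 CPM in manual and 14.3 ± 14.5 CPM in in vivo libraries, and SREBF2, which also drives sterol genes and had the smallest p of its list for automatic against manual, 21.9 ± 21.2, 49.8 ± 35.4 and 50.02 ± 31.1 CPM (SD, n = 5). The automatic against manual log2 fold changes were -1.60 ± 1.26 for SREBF1 and -1.18 ± 0.86 for SREBF2 (edgeR adjusted p = 0.9999 for each), intervals that reach across 0. INSIG1, which holds these factors back in the endoplasmic reticulum, had means of 20.2 ± 32.7 CPM in automatic, 35.8 ± 15.0 CPM in manual and 16.2 ± 9.84 CPM in in vivo libraries.

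The smallest p values of the other lists for automatic against manual belonged to NCOR1, a co-repressor (log2 0.87 ± 0.65), IDH1, a cytosolic source of NADPH (0.82 ± 0.40), HACD1, a dehydratase of elongation (-2.60 ± 1.86), CHPT1, which makes phosphatidylcholine (-3.96 ± 1.91), AUP1, a droplet and endoplasmic reticulum protein (-0.82 ± 0.41), SLC27A6, a fatty acid transporter (3.16 ± 2.07), and MLYCD, which removes malonyl-CoA (-3.43 ± 1.95), each with an edgeR adjusted p = 0.9999. HACD1, SLC27A6 and MLYCD rest on few counts. AUP1 averaged 113 ± 37.8 CPM in automatic, 199 ± 97.0 CPM in manual and 322 ± 103 CPM in in vivo libraries (SD, n = 5).

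For in vitro against in vivo, AUP1 had a log2 fold change of -1.10 ± 0.34 (edgeR adjusted p = 0.553). ACADM, the medium-chain acyl-CoA dehydrogenase of mitochondrial oxidation, lay at 274 ± 139 CPM in automatic, 238 ± 142 CPM in manual and 86.4 ± 38.2 CPM in in vivo libraries (SD, n = 5), a log2 fold change of 1.56 ± 0.42 (edgeR adjusted p = 0.411; DESeq2 1.56 ± 0.43, adjusted p = 0.0407). The smallest p of the remaining lists belonged to PRKAA1, a catalytic subunit of the energy sensor AMPK (1.87 ± 1.09), NCOR1 (-0.78 ± 0.55), MDH2, the mitochondrial malate dehydrogenase (-0.78 ± 0.29), HACD1 (-1.57 ± 1.46), AGPAT5, an acyltransferase (0.96 ± 0.42), and SLC27A6 (-3.53 ± 1.62), with edgeR adjusted p of at least 0.658.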

How the data were processed

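Poly(A) RNA of 15 day 7 blastocyst libraries was made with a stranded kit whose adaptors carry molecular identifiers, per the labels' protocols. The deposited table, made by the authors, gives estimated counts for each gene as unscaled whole numbers. FastQC, fastp and kallisto appear, with neither version nor role, in the submitters' processing notes. Nothing read here names the genome build, the transcript set or the handling of identifiers (not given in the sources used here), and no coordinates or sequences are printed. A line without a gene name held no values and was left out. Symbols of all 36 genes matched the ARS-UCD2.0 annotation, used for names and for gene order.

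Rounding changed 0 values. In R 4.3.3, edgeR 4.0.16 fitted all 15 libraries with a mean per group (filterByExpr, 11578 genes kept; TMM; robust estimateDisp and glmQLFit; glmQLFTest). The SE of a log2 fold change is its size over the root of the F statistic. Alternatives used other scalings, filters, DESeq2 1.42.0, voom in limma 3.58.1, a replicate block, a detection covariate and fewer libraries. The tests were tried on simulated counts. Low-detection libraries have under 9000 genes with 10 or more counts.

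The 36 genes, lists and alternatives were chosen with earlier results of these data known. Values per library are given for 27 genes, 22 that stand for a step of the pathway plus all with an unadjusted p under 0.05 in any comparison (11 genes, 5 of them additional), and by group mean, range or count for the rest. Log2 fold changes are given singly for the 11, where at least 0.5 in size, and for ACSL3, added after values were seen. From each further list the gene with the smallest p is named; SREBF1 and INSIG1 were added after values were seen. A promoter motif search was not run, since no sequence was used here. Precision is limited for genes of few counts.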

Additional observations from a re-analysis of the deposited data

Results flagged for a closer look

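Within the 81 sets of 5 libraries that 27 genes in 3 groups make, 13 had 1 library far from the other 4, judged by its gap to the nearest library as a share of the range of log2 CPM (prior count of 2). About 1 set in 20 is expected by chance for normally spread values, a rate that need not hold for sets with libraries without counts. The share of sets flagged over all genes tested was not computed, so the 13 do not show an excess for these genes. Of the 13, 11 were low-detection libraries.

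In vivo 2 stood apart at the low end for FADS1 (share 0.863, 7.65 CPM), ELOVL1 (0.816, 3.90 CPM) and DGAT1 (0.749, 0.230 CPM) and at the high end for ACSL3 (0.786, 1465 CPM). In vivo 4 stood apart at the low end for PLIN2 (0.928, 87.2 CPM), CPT1A (0.849, 0.0915 CPM) and GPAM (0.767, 0 CPM). Manual 2 was lowest by such a gap for SCD (0.826, 53.3 CPM) and GPAM (0.853, 0 CPM), and automatic 2 for ACSL3 (0.722, 160.2 CPM) and DGAT1 (0.869, 0 CPM).

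The 2 libraries outside the low-detection ones were in vivo 5, low for SCD (0.739, 13.7 CPM), and automatic 1, which alone of its group had counts of ACSS2 (1.0, 0.750 CPM).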

How the results depend on the processing

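No lipid gene was called by edgeR in the fit of the 3 groups alone, nor under another scaling or filter, with the detection covariate or by limma-voom. DESeq2 called 1 of them for automatic against manual, 1 for in vitro against in vivo, 3 for automatic against in vivo and 1 for manual against in vivo; over all genes it called 9, 87, 87 and 44 in that order. Leaving out 1 library gave 0 to 1 lipid genes for in vitro and for automatic against in vivo (1 without manual 3), and 0 to 7 and 0 to 4 genes over all. Without the low-detection libraries 1, 7, 9 and 3 genes were called in the 4 comparisons, none a lipid gene. Limma-voom called 15, 9 and 1 genes for in vitro, automatic and manual against in vivo, the detection covariate 7 for in vitro against in vivo, library size alone 0 for in vitro and 0 for automatic against in vivo, and the fit without a filter 1 for automatic against in vivo. The cause of these shifts was not tested.

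With the replicate number as a block, 8, 7 and 1 genes were called for in vitro, automatic and manual against in vivo, and FADS3 was the 1 lipid gene among them (automatic against in vivo, -2.58 ± 0.38, edgeR adjusted p = 0.0206). Deviations of same-numbered libraries correlated at 0.00137 to 0.380, over 0.1 in 8 of 15 pairs, so the numbers were not taken to pair the libraries.

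The fold changes given singly for lipid genes and for genes of the further lists kept their direction in every alternative that gave a value, except that of ACSL3 for in vitro against in vivo, which ran from -0.10 to 0.56 as 1 library at a time was left out. Of the other 22 tested lipid genes, ACSL3 among them, 11, 11, 11 and 9 changed sign under some alternative in the 4 comparisons. The median log2 fold change over all genes was -0.04 for in vitro against in vivo, and 0.10 when scaled by library size alone. Values of genes with few counts in most libraries (ACSS2, MGLL, SCD5, LIPE) are imprecise, and why these counts were few was not tested.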
